A study of Mus musculus with 8 samples.

Results

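A set of 10 genes known for higher expression in the thalamus than in the hippocampus were followed in hippocampal RNA of mice with and without Mbd2, a protein that binds methylated CpG sites. They were Tcf7l2, Rora, Lef1, Amotl1, Plekhg1, Prkcd, Ramp3, Slc17a6, Ntng1 and Tnnt1, which make 10 of the 19201 genes in the expression table. They were chosen by their names as thalamus-enriched genes and with their difference between the genotypes known, so every difference between genotypes given for them is a description and has no test. RNA was sequenced from 4 wild-type libraries, labelled as the control group, and from 4 Mbd2-/- libraries. All animals were on a C57BL/6 background, of both sexes and 10 to 12 weeks old, and a library held pooled hippocampal RNA of 2 mice. The deletion was constitutive, exon 1 of Mbd2 stayed in the allele, and the wild-type animals were littermates bred from heterozygous parents. No other treatment or allele is named for either group. No thalamic sample was sequenced, so the enrichment of these genes in thalamus could not be measured here.

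The thalamus is the group of nuclei that relays sensory and motor signals to the cortex, and it lies beneath the hippocampus in the mouse brain. Its relay neurons are excitatory and load glutamate into vesicles mainly with the transporter Slc17a6, whereas the principal neurons of the hippocampus mainly use Slc17a7. Tcf7l2 and Lef1 encode Tcf/Lef transcription factors, which bind beta-catenin and switch on target genes of canonical Wnt signalling. In the adult brain Tcf7l2 is a well known marker of thalamic neurons and is also made by differentiating oligodendrocytes. Transcripts of some of these genes are also known from glia, vessels or interneurons of the hippocampus, and a bulk hippocampal sample holds RNA from all of these cells.

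The libraries held 8087750 to 23790825 reads on genes, and all 10 genes had reads in every library. The 10 genes together took 0.0445 to 0.0464% of the reads on genes in the wild-type libraries and 0.0304 to 0.0366% in the Mbd2-/- libraries. Mbd2 itself had a mean normalized count of 346 ± 34.4 (SD, n = 4) in wild-type and 260 ± 54.3 (n = 4) in Mbd2-/- libraries, a log2 fold change of -0.43 (SE 0.12) with an adjusted p of 0.0174 in limma. Mbd2-/- replicate 3 (339) lay in the wild-type range of 295 to 371, and the other Mbd2-/- libraries were at 217 to 244. Reads can still come from the exon 1 that the allele keeps, so this count does not check the deletion. The call of Mbd2 was lost when any of wild-type replicate 3 (adjusted p = 0.0625), Mbd2-/- replicate 1 (0.0542) or Mbd2-/- replicate 2 (0.0579) was left out. In 3 of the Mbd2-/- libraries longer transcripts had lower values (Spearman rank correlation of -0.48, -0.43 and -0.48 across genes), and in Mbd2-/- replicate 4 this trend was weaker (rank correlation of -0.10), so values with the length trend removed are given beside a named gene where they change its call or move a called value by over 1.5 times, and beside some others. Each p-value measures only the spread between these pools.

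In Mbd2-/- hippocampus 9 of the 10 thalamus-enriched genes had a lower mean, and their median log2 fold change was -0.41. Over the 14504 tested genes, those averaging 10 normalized counts or more, the median was 0.00, 5% of genes lay below -0.36 and 1% below -0.65. For 6 genes (Tcf7l2, Amotl1, Plekhg1, Prkcd, Slc17a6 and Ntng1) every Mbd2-/- library was below every wild-type library, a pattern seen in 11.5% of all tested genes. In the fit across all genes 7 of the 10 had an adjusted p under 0.05 with a lower value and 0 with a higher value, where 10.0% of all tested genes were called lower and 12.0% higher (limma, Benjamini-Hochberg). Nothing is read from these counts, because the genes were chosen with this contrast known. In bulk tissue a smaller number of cells of a type and less RNA in each cell cannot be told apart.

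**Figure D1:**
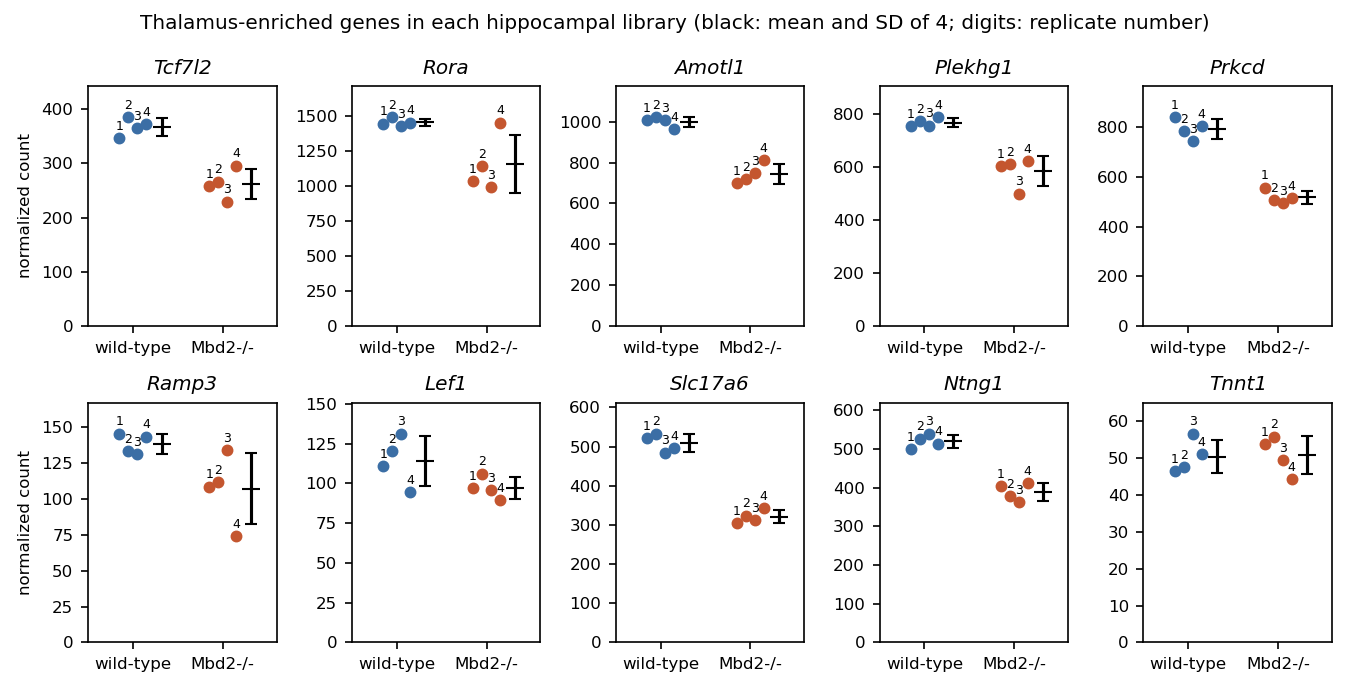
Normalized counts of the 10 thalamus-enriched genes in 4 wild-type (blue) and 4 Mbd2-/- (orange) hippocampal libraries, with the mean and SD of each genotype in black and the replicate number above each point. In 6 panels the orange points all lie below the blue ones, Rora and Ramp3 each have a single orange point that reaches the blue range, and the points of Lef1 and Tnnt1 mix.

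The transcription factors among the genes were Tcf7l2, Lef1 and Rora, a nuclear receptor of the Ror family. Tcf7l2 (ENSMUSG00000024985.11), which spans chr19:55816300-56008144 on the plus strand of mm9, had normalized counts of 346, 385, 366 and 372 in wild-type replicates 1 to 4 and 258, 266, 230 and 296 in Mbd2-/- replicates 1 to 4. The groups did not overlap, and the highest Mbd2-/- value, that of replicate 4, was below the lowest wild-type value. The mean was 28.6% lower, from 367 ± 16.3 to 262 ± 27.3 (SD, n = 4 each), and the log2 fold change was -0.49 (SE 0.08). Rora (chr9:68501593-69236053, plus strand) had normalized counts of 1445, 1490, 1427 and 1452 in the wild-type libraries and 1034, 1143, 991 and 1452 in the Mbd2-/- libraries. Replicates 1 to 3 of Mbd2-/- were far below the narrow wild-type range, and replicate 4 lay inside it. The log2 fold change of Rora was -0.35 (SE 0.09), -0.46 without Mbd2-/- replicate 4 and -0.20 with the length trend removed. Lef1 (chr3:130813389-130927274, plus strand) had normalized counts of 111, 120, 131 and 94.5 in the wild-type libraries and 97.0, 106, 95.6 and 89.4 in the Mbd2-/- libraries. The ranges overlapped because wild-type replicate 4 fell among the Mbd2-/- values, and the log2 fold change of -0.23 (SE 0.12) was the smallest fall among the 9 genes with a lower mean.

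Among the genes for transmission and signalling, Slc17a6 and Prkcd had the largest falls. Slc17a6 (chr7:58877200-58926495, plus strand) had normalized counts of 522, 533, 484 and 496 in wild-type replicates 1 to 4 and 304, 324, 312 and 342 in Mbd2-/- replicates 1 to 4. The gap between the groups was wider than the range of either group. Its mean was 37.0% lower in Mbd2-/- libraries, a log2 fold change of -0.66 (SE 0.07). Prkcd (chr14:31408542-31439396, minus strand) encodes the delta isoform of protein kinase C and is a known marker of sensory thalamic relay nuclei. It had normalized counts of 841, 785, 744 and 806 in the wild-type libraries and 557, 508, 496 and 514 in the Mbd2-/- libraries. The groups stood apart here as well, with a mean 34.7% lower and a log2 fold change of -0.61 (SE 0.06). Ramp3 (chr11:6558524-6577478, plus strand) encodes a membrane protein that joins the calcitonin receptor-like receptor Calcrl and sets which peptides it binds. It had normalized counts of 145, 133, 131 and 143 in the wild-type libraries and 109, 112, 134 and 74.0 in the Mbd2-/- libraries. Its Mbd2-/- values were the most scattered relative to their mean of the 10 genes, since replicate 3 lay in the wild-type range and replicate 4 was far below all other libraries. The log2 fold change of Ramp3 was -0.40 (SE 0.14), -0.23 without Mbd2-/- replicate 4 and -0.59 with the length trend removed. The exons of Ramp3 share 101 bases with an antisense transcript, Gm11978, whose mean normalized count was only 0.963, and the exons of Rora share 82 bases with another, Gm15511.

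The remaining genes act at the cell surface, at junctions or on the cytoskeleton. Ntng1 (chr3:109582958-109938426, minus strand) encodes netrin-G1, a lipid-anchored protein of axons that binds the postsynaptic protein Lrrc4c. It had normalized counts of 499, 527, 540 and 514 in the wild-type libraries and 405, 378, 363 and 412 in the Mbd2-/- libraries. The groups did not overlap, and the log2 fold change was -0.42 (SE 0.07). Amotl1 (chr9:14346410-14447973, minus strand), an angiomotin family scaffold of cell junctions, had normalized counts of 1007, 1022, 1007 and 965 in the wild-type libraries and 700, 721, 748 and 811 in the Mbd2-/- libraries. The wild-type values were tight and all lay above the Mbd2-/- values, with a log2 fold change of -0.43 (SE 0.06) that was -0.29 with the length trend removed. Plekhg1 (chr10:6379238-6606177, minus strand), a guanine nucleotide exchange factor, had normalized counts of 754, 773, 757 and 788 in the wild-type libraries and 603, 611, 499 and 623 in the Mbd2-/- libraries. The groups did not overlap, although Mbd2-/- replicate 3 was far below the other Mbd2-/- libraries, and the log2 fold change of -0.40 (SE 0.07) was -0.28 with the length trend removed. Tnnt1 (chr7:4456172-4467984, minus strand) encodes the slow skeletal muscle form of troponin T and is used as a marker of thalamic neurons. It had normalized counts of 46.5, 47.4, 56.5 and 51.0 in the wild-type libraries and 53.6, 55.8, 49.4 and 44.2 in the Mbd2-/- libraries. Its groups mixed fully, and its log2 fold change of 0.01 (SE 0.14) became -0.23 with the length trend removed.

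The Mbd2-/- libraries were not equally low. The median log2 difference of the 10 genes from the wild-type mean was -0.42, -0.40, -0.53 and -0.32 in Mbd2-/- replicates 1 to 4. Replicate 4 gave the highest Mbd2-/- value for 6 of the 10 genes and the lowest for 3, and replicate 3 gave the lowest for 5. Replicate 4 is also the library with the weakest length trend, and the part of that trend in these differences was not tested beyond the values with the trend removed. In the wild-type libraries the median variance of the 10 genes was 0.655 times that expected from counting reads, and in the Mbd2-/- libraries it was 1.75 times, with the highest ratio for Rora (34.7).

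The size of the fall was set against the thalamic specificity of each gene, and then against its level in wild-type hippocampus. First, the genes were put into 2 classes from general knowledge, since no atlas was among the data. The 5 genes known mainly from thalamic neurons (Prkcd, Ramp3, Slc17a6, Ntng1 and Tnnt1) had a median log2 fold change of -0.42, with a range of -0.66 to 0.01. The 5 genes also known from glia, vessels or interneurons of the hippocampus (Tcf7l2, Rora, Lef1, Amotl1 and Plekhg1) had a median of -0.40, with a range of -0.49 to -0.23. In each class 3 of 5 genes had every Mbd2-/- library below every wild-type library, a pattern seen in 11.5% of all tested genes. The class medians differed by -0.02, less than the SE of any of the genes. The first class held both the largest falls and the gene with none. With the length trend removed the difference between the class medians was -0.31, with the larger fall in the mainly thalamic class. Without Mbd2-/- replicate 3 it was -0.19, and without Mbd2-/- replicate 4 it was 0.02, so its size and sign changed with a single library. These classes were not tested against each other, because the contrast had chosen their members. Second, the falls were set against the wild-type level per kb of exons in these hippocampal libraries. It measures abundance in hippocampus and not thalamic specificity. This level ranged from 13.2 for Lef1 and 23.0 for Tnnt1 to 118 for Slc17a6 and Ntng1 and 159 for Prkcd. The median level was 118 per kb in the mainly thalamic class and 87.8 in the other, so a lower hippocampal level did not mark the mainly thalamic class. The genes with the lowest levels per kb, Lef1 and Tnnt1, also had the log2 fold changes closest to 0. Across the 10 genes the Spearman rank correlation between level per kb and log2 fold change was -0.64, and across these genes and the other thalamic and habenular genes given below (n = 27) it was 0.28. All points share the same 8 libraries, and the level is part of the fold change.

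**Figure D2:**
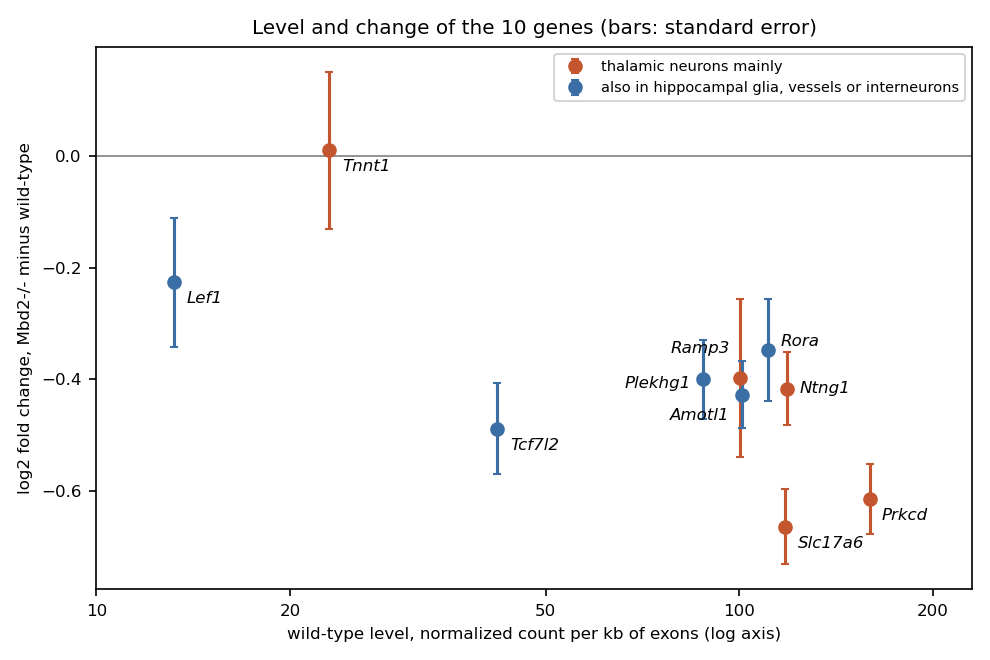
Log2 fold change of each thalamus-enriched gene (Mbd2-/- minus wild-type, bars show the SE) against its wild-type normalized count per kb of exons on a log axis, coloured by class. Slc17a6 and Prkcd lie lowest, Tnnt1 lies at 0.01, and the classes cover overlapping ranges.

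A list of 11 further genes of the adult or developing thalamus, none of them among the 10, gave a comparison outside the chosen names. All 11 had a log2 fold change below 0, with a median of -0.58 beside 0.00 over all tested genes, and 8 fell at an adjusted p under 0.05 (limma, Benjamini-Hochberg, 10.0% of all tested genes). Shox2, a homeodomain transcription factor, fell by 1.24 on the log2 scale (SE 0.17, adjusted p = 0.000196). Rgs16, a regulator of G protein signalling, fell by 0.81 (SE 0.12, adjusted p = 0.000294). Zic1, a zinc finger transcription factor, fell by 0.70 (SE 0.08, adjusted p = 3.46e-05), and Cacna1g, the T-type calcium channel of burst firing in relay neurons, fell by 0.46 (SE 0.06, adjusted p = 0.000164). Gbx2, a homeobox gene of thalamic development named after its values were seen, fell by 1.51 (SE 0.34, adjusted p = 0.00589) from a low wild-type level of 5.50 per kb. Lhx9, Slitrk6 and Vav3 did not pass, with log2 fold changes of -0.09, -0.65 and -0.23. Slitrk6 passed in DESeq2 and edgeR (adjusted p = 0.0357 and 0.0324) and when wild-type replicate 1 or Mbd2-/- replicate 4 was left out (0.0183 and 0.0197), and also with the replicate number as a block in the fit (0.0366). Vav3 passed without Mbd2-/- replicate 4 (-0.33, adjusted p = 0.00173). Among the 8 calls that of Foxp2 (-0.58, adjusted p = 0.0488) was lost with no filter (0.0599), with the length trend removed (0.0992) and without any of 7 libraries (adjusted p of 0.0521 to 0.128). Its log2 fold change was -0.34 without Mbd2-/- replicate 3. Foxp2 was named after its values were seen. Lhx9, Slitrk6 and Vav3 were also named after their values were seen. These genes were listed with earlier results of the same libraries known, so they are no independent evidence for the fall of the 10.

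The habenula adjoins the thalamus. Of 6 habenular genes 4 fell, where 10.0% of all tested genes were called lower, and the median log2 fold change was -0.66. Nwd2 fell by 0.43 (SE 0.06, adjusted p = 0.000282), the nicotinic receptor subunit gene Chrna3 fell by 1.01 (SE 0.20, adjusted p = 0.00283), the receptor gene Gpr151 by 0.63 (SE 0.17, adjusted p = 0.0151) and the transcription factor gene Pou4f1 by 1.14 (SE 0.32, adjusted p = 0.0172). Reads were few for Pou4f1 (4 to 49 in a library), Chrna3 (11 to 92) and Gpr151 (16 to 99). In DESeq2 on recovered reads 3 of the 6 were called lower. Chrnb4 and Tac2 had log2 fold changes of -0.68 and -0.41 and did not pass, though both passed without Mbd2-/- replicate 3 (adjusted p = 0.0222 and 0.0466). With the length trend removed Tac2 had a log2 fold change of -0.73 (adjusted p = 0.00335), and 5 of the 6 habenular genes were called. Chrnb4 and Tac2 were named after their values were seen. Without wild-type replicate 4 only 2 of the 6 remained called, because Gpr151 and Pou4f1 lost their calls (adjusted p = 0.0513 and 0.0501), and without wild-type replicate 1 Gpr151 was lost (0.0588). Pou4f1 also lost its call when wild-type replicate 3, Mbd2-/- replicate 1 or Mbd2-/- replicate 2 was left out (adjusted p = 0.0552, 0.0513 and 0.0541).

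Markers of other cells that a hippocampal sample can hold are given next, and their counts can be read beside the 10.0% of all tested genes called lower and the 12.0% called higher. The summed normalized count of 18 choroid plexus genes was 24583 to 26273 in the wild-type libraries and 47476 to 53914 in the Mbd2-/- libraries, none was at 0 in any library, and all 18 rose, with a median log2 fold change of 0.86. Ttr, the transthyretin gene and the most abundant of them, rose by 1.32 (SE 0.06, adjusted p = 3.42e-09), and Enpp2, Aqp1 and Folr1 rose by 0.61, 1.19 and 1.14 (adjusted p = 2.67e-07, 7.23e-07 and 7.82e-07). The part of the choroid plexus RNA in the falls of the thalamic genes was not tested.

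All 14 markers of hippocampal principal cells had reads in every library. Their summed normalized counts overlapped between the genotypes (17155 to 17897 in wild-type and 16715 to 17444 in Mbd2-/- libraries), and their median log2 fold change was -0.04. Of the 14 genes, 3 fell and 2 rose, among them Wfs1 (-0.31, adjusted p = 0.000793), Fibcd1 (-0.29, adjusted p = 0.00318), Bok (0.51, adjusted p = 0.00036, and 0.34 with the length trend removed) and Spink8 (0.31, adjusted p = 0.0179, but 0.01 and not called with the length trend removed). Spink8 also lost its call when wild-type replicate 1, wild-type replicate 3 or Mbd2-/- replicate 1 was left out (adjusted p = 0.0605, 0.0543 and 0.0648). With Mbd2-/- replicate 4 left out, 4 of the 14 genes fell and 4 rose. Of 7 genes of the neocortex only Cux2 passed (-0.20, adjusted p = 0.0336), and its call was lost with the length trend removed (-0.09, adjusted p = 0.426) and without any of 5 libraries (adjusted p of 0.0653 to 0.109). Fezf2, named after its values were seen, was called lower with the length trend removed (-0.26, adjusted p = 0.0226) and without Mbd2-/- replicate 1 (0.0418). Of 8 tested striatal genes Drd2 (-1.17, adjusted p = 0.000468) and Syndig1l (-0.41, adjusted p = 0.0244) fell and Ppp1r1b rose (0.40, adjusted p = 0.00369). Syndig1l was not called without wild-type replicate 3, wild-type replicate 4 or Mbd2-/- replicate 1 (adjusted p = 0.0934, 0.0588 and 0.0582).

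The lists for cell types in which some of the 10 genes are also made had median log2 fold changes of 0.04 (interneurons, -0.06 with the length trend removed), 0.16 (oligodendrocyte lineage), 0.17 (endothelium) and 0.18 (astrocytes). In the oligodendrocyte lineage 5 of 11 genes rose, with Bcas1, Mbp, Mobp and Mog at 0.47, 0.41, 0.33 and 0.34 (adjusted p = 2.14e-05, 2.82e-05, 0.000109 and 0.000526), and Mog at 0.20 with the length trend removed. Gpr17, a marker of differentiating oligodendrocytes named after its value was seen, fell by 0.22 (adjusted p = 0.0365), and was not called with the length trend removed (-0.14, adjusted p = 0.181) or without any of 5 libraries (adjusted p of 0.069 to 0.104). Of 8 astrocyte genes 4 rose, with Gfap, Slc1a3, Aldh1l1 and Gja1 at 0.46, 0.30, 0.26 and 0.20 (adjusted p = 3.3e-05, 0.000253, 0.0034 and 0.0298), and 7 of the 8 rose with the length trend removed. The call of Gja1 was lost without any of 5 libraries (adjusted p of 0.0675 to 0.108). Of 10 endothelial genes Cldn5, Slco1c1 and Slco1a4 rose by 0.38, 0.47 and 0.24 (adjusted p = 0.00334, 7.2e-05 and 0.0267). With the length trend removed Cldn5 was at 0.21 (adjusted p = 0.0499), and Slco1a4 lost its call without wild-type replicate 1, 3 or 4 (adjusted p = 0.0554, 0.0807 and 0.0757). Of 8 interneuron genes 4 rose and 2 fell, led by Npy (0.72, adjusted p = 0.000141), Sst (0.40, adjusted p = 0.00652), Gad2 (-0.28, adjusted p = 0.00228) and Gad1 (-0.21, adjusted p = 0.00417). With the length trend removed 1 interneuron gene rose and 3 fell, Sst was no longer called (0.06, adjusted p = 0.562), and Npy and Gad2 were at 0.38 and -0.18. Whether these cell types have a part in the falls was not tested.

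**Figure D3:**
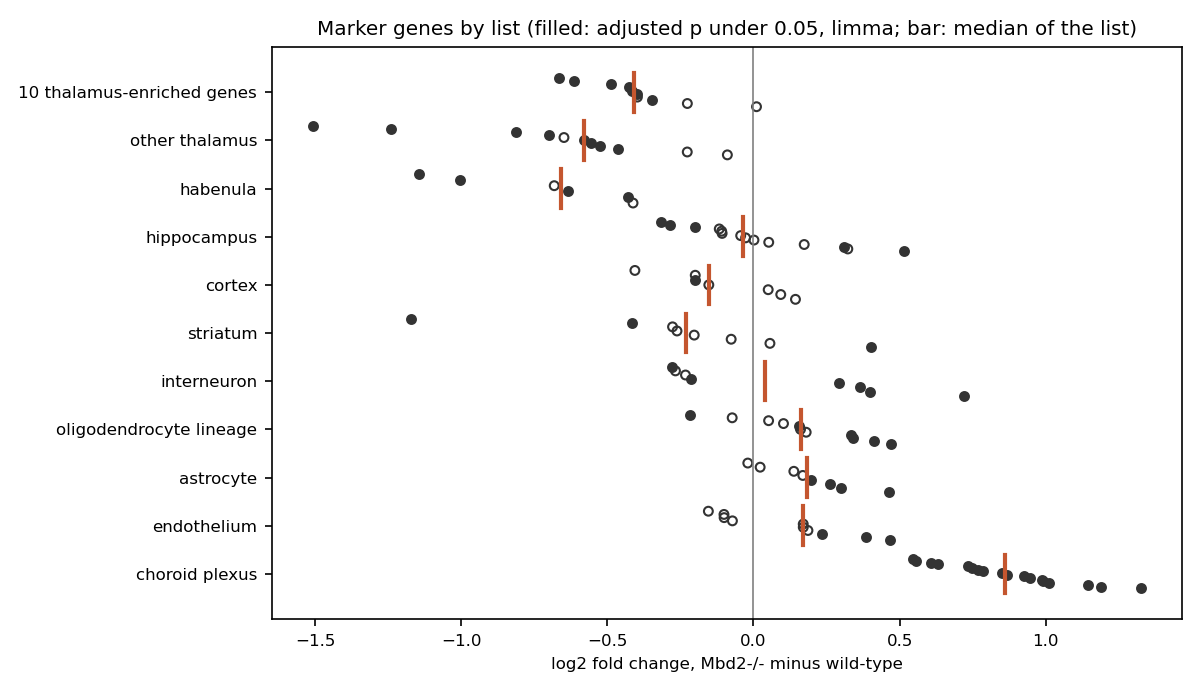
Log2 fold changes (Mbd2-/- minus wild-type) of the 10 thalamus-enriched genes and of 10 lists of regional and cell type markers, with filled points for genes with an adjusted p under 0.05 in limma and an orange bar at the median of each list. The thalamic and habenular medians lie at -0.41, -0.58 and -0.66, the hippocampal median at -0.04 and the choroid plexus median at 0.86.

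Family members, receptors and ligands of the 10 genes were measured to see whether the falls ran through whole families. Of 23 such genes 21 could be tested, 2 fell and 1 rose, where 10.0% of all tested genes were called lower and 12.0% higher. Their median log2 fold change was 0.03 beside 0.00 over all tested genes, and with the length trend removed 2 were lower and 3 higher. Beside the fall of Slc17a6, the hippocampal transporter gene Slc17a7 had a log2 fold change of -0.14 (adjusted p = 0.0838) and Slc17a8 one of -0.31 (adjusted p = 0.136). Slc17a7 passed with the length trend removed (adjusted p = 0.0352) and without Mbd2-/- replicate 3 (-0.20, adjusted p = 0.0107). Beside Prkcd, the protein kinase C genes Prkca, Prkcb, Prkce and Prkcq had log2 fold changes of -0.18, -0.10, -0.06 and 0.19, of which only Prkca passed (adjusted p = 0.0219). Its call was lost with the length trend removed (-0.05, adjusted p = 0.415) and without any library but wild-type replicate 2 and Mbd2-/- replicate 4 (adjusted p of 0.0512 to 0.0736). Prkcb passed without Mbd2-/- replicate 4 (-0.15, adjusted p = 0.00324). Beside Ramp3, its paralogue Ramp1 rose by 0.34 (SE 0.08, adjusted p = 0.00633), while Ramp2 and the shared receptor Calcrl each had a log2 fold change of 0.14 and did not pass (-0.03 and 0.21 with the length trend removed, also not called). Plekhg5 fell by 0.25 (SE 0.06, adjusted p = 0.00738), and Plekhg2 and Plekhg3 did not pass. Rorb (0.14) and Amot (0.17) did not pass, and each passed with the length trend removed (0.27 and 0.28, adjusted p = 0.00691 and 0.00532), Amot also without Mbd2-/- replicate 3 (0.25, adjusted p = 0.0195). The log2 fold change was 0.03 for Ntng2, the paralogue of Ntng1, and -0.15 for Lrrc4c, its binding partner, which passed only without Mbd2-/- replicate 4 (-0.20, adjusted p = 0.00311). Genes of this paragraph outside the 3 called ones were named after their values were seen.

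**Figure D4:**
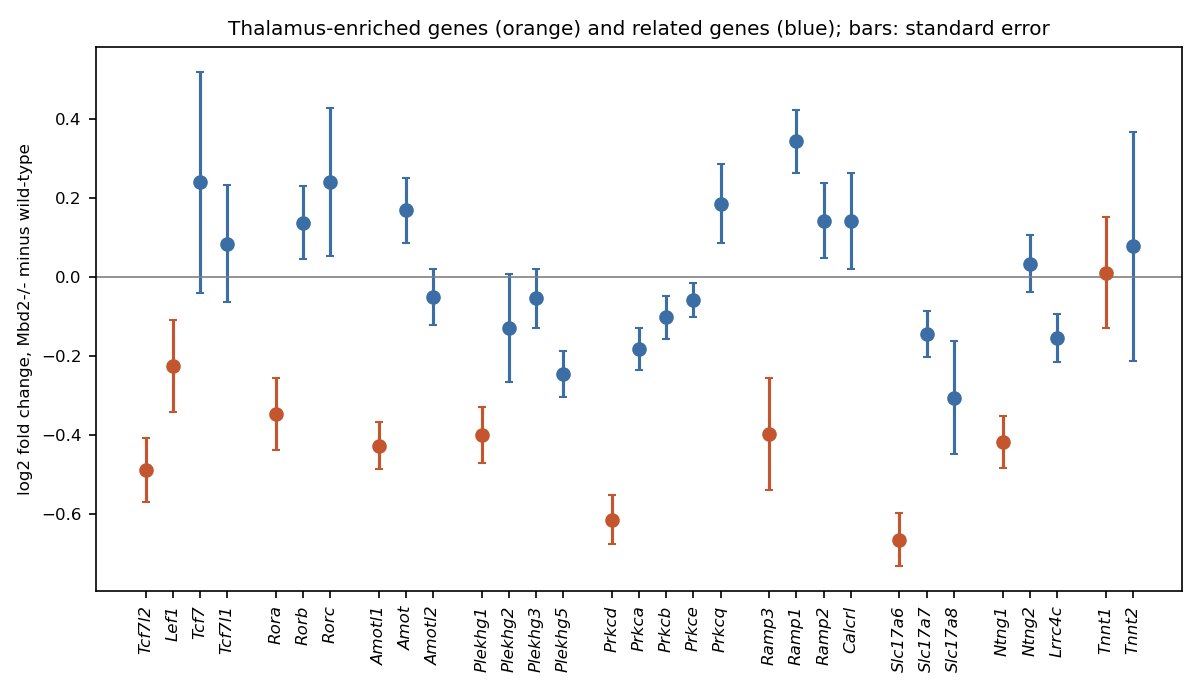
Log2 fold change (Mbd2-/- minus wild-type) with its SE for the 10 thalamus-enriched genes (orange), each followed by its tested family members, receptors or ligands (blue). The orange points of Slc17a6, Prkcd and Tcf7l2 lie at -0.66, -0.61 and -0.49, and all blue points lie between -0.31 and 0.34.

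The Wnt pathway around Tcf7l2 and Lef1 was described through 24 partners, inhibitors and classic targets, of which 23 could be tested. Of these 5 fell and 1 rose, where 10.0% of all tested genes were called lower and 12.0% higher, and the median log2 fold change was -0.07. With the length trend removed the calls split evenly, with 2 lower and 2 higher. Tle2, a groucho family co-repressor, fell by 0.43 (SE 0.10, adjusted p = 0.00876), and Bcl9, which links beta-catenin to its co-activators, fell by 0.25 (SE 0.06, adjusted p = 0.0106). The co-repressor gene Tle3 fell by 0.23 (SE 0.07, adjusted p = 0.0194), and Apcdd1, an inhibitor of Wnt at the cell surface, rose by 0.28 (SE 0.07, adjusted p = 0.0122). The remaining falls were those of Nkd2 (-0.63, SE 0.18, adjusted p = 0.0221) and Znrf3 (-0.22, SE 0.08, adjusted p = 0.0431). With the length trend removed Nkd2 was still called (-0.59, adjusted p = 0.0342). Bcl9, Tle3 and Znrf3 were then not called (-0.14, -0.10 and -0.12, adjusted p = 0.0853, 0.37 and 0.25). Without wild-type replicate 1 or wild-type replicate 3 only 3 of the 23 were called. Tle3 (adjusted p = 0.074 and 0.0669) and Nkd2 (0.0727 and 0.0781) were then not called. Znrf3 also lost its call without any of 7 libraries (adjusted p of 0.0624 to 0.148). Beta-catenin itself (Ctnnb1, log2 fold change 0.01, adjusted p = 0.933) and the feedback target Axin2 (-0.07, adjusted p = 0.511) did not pass, nor did the other Tcf/Lef genes Tcf7 (0.24) and Tcf7l1 (0.08), though Tcf7 passed without Mbd2-/- replicate 3 (0.58, adjusted p = 0.0455). Nkd2, Znrf3, Ctnnb1, Axin2, Tcf7 and Tcf7l1 were named after their values were seen.

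Within a genotype, where the contrast had no part in the choice, the likeness of the 10 genes from library to library was also measured. After each genotype mean was subtracted, Pearson's r of a gene with the mean of the other 9 over the 8 libraries had a median of -0.08 and ran from -0.86 for Ramp3 to 0.52 for Plekhg1. An r of 0.5 was reached by 1 of the 10 and by 14.6% of the other 14494 tested genes. Over the 45 pairs of the genes the median r was 0.02, and 25 pairs were above 0. The 10 other genes most like the mean of the set in this measure were 4833439L19Rik, 9430016H08Rik, Prkar2a, Frmpd3, Smc1a, Mr1, Hykk, Podxl, Ppil4 and Ifit2, with r from 0.94 to 0.99. They are the extremes of the 14494 genes, whose r ran from -0.97 to 0.99, and no shared control is read from them. Prkar2a, Smc1a and Podxl were called lower (-0.22, -0.26 and -0.23, adjusted p = 0.0171, 0.0175 and 0.021). With the length trend removed Smc1a and Podxl were not called (-0.20 and -0.14, adjusted p = 0.0506 and 0.124). These correlations are a description over 8 libraries that share genotype means, depth and length trend, and leaving out a library moved the median of the 10 between -0.31 and 0.19, so its sign is not settled.

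Because Mbd2 binds methylated CpG sites, the 250 bases before the transcription start of each gene were read from RefSeq (GRCm38.p6), and all 10 genes had an entry. The CG counts of these windows ran from 3 to 30 with a median of 14, and over 11014 tested genes with an entry the median was 15 (quartiles 9 and 23). Tcf7l2 had 30 CG, Rora 26, Ntng1 25, Prkcd 18, Amotl1 15, Ramp3 13, Lef1 11, Slc17a6 7, Tnnt1 6 and Plekhg1 3. Not every window lies at the start of the mm9 gene model. The RefSeq start was 132303 bases inside the model for Plekhg1, 28529 for Amotl1 and 407 for Tnnt1, and 7964 bases before it for Ntng1. The other 6 windows lay within 200 bases of the model start and had a median of 15.5 CG. The core motif of Tcf/Lef factors (CTTTGA, or TCAAAG on the other strand) occurred in 1 of the 10 windows, that of Prkcd at position -139, and in 10.8% of all windows. The half-site of Rora (AGGTCA, or TGACCT on the other strand) occurred in 0 of the 10 and in 10.3% of all windows. These motifs do not overlap, and a match is a description of letters and not a binding site. The windows of Tcf7l2 (chr19:55741560-55741809, plus strand), Slc17a6 (chr7:51621580-51621829, plus strand) and Prkcd (chr14:30626209-30626458, minus strand) are shown because they hold the most CG of the set, the largest fall, and the only Tcf/Lef match, with every CG in capitals:
Tcf7l2: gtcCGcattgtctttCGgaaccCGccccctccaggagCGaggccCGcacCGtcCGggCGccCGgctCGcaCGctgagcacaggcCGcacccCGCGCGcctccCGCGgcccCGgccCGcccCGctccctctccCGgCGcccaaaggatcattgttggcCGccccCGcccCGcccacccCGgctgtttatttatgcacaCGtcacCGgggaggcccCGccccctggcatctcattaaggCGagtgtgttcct
Slc17a6: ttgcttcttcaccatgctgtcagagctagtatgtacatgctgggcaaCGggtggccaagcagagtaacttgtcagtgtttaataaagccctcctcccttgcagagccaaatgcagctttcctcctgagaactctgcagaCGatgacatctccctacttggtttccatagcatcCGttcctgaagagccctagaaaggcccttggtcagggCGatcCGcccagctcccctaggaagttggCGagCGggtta
Prkcd: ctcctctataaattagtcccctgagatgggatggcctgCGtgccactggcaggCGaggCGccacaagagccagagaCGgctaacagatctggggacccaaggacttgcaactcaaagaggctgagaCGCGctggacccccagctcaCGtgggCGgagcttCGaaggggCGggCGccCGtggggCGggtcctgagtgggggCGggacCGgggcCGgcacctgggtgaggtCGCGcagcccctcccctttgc
These windows were picked for their CG count, fall or motif, so no relation between CG count and fall is read from them. Methylation was not analysed here.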

How the data were processed

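Ribosomal RNA-depleted RNA of 8 pooled hippocampal samples was sequenced. The authors aligned reads to mm9 with STAR and deposited a signal for each library, the normalized count, which is a gene's reads after division by a DESeq2 size factor. Whether counting used strand is not given in the sources used here. The table also holds the authors' own comparison (log2 fold changes, SE, Wald statistics, p and adjusted p-values), which was not used. Whole reads were recovered for 100% of values (within 0.01 of a read), and 1 read was worth 0.531 to 1.59 normalized counts. Reads are not independent molecules, so totals cover counting error only.

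Values were taken to log2 after adding a pseudocount of 1, and genes averaging 10 or more normalized counts were compared by genotype in limma 3.58.1 (trend, robust, R 4.3.3), with Benjamini-Hochberg adjustment over all 14504 tested genes and a threshold of 0.05. Fold changes are on that scale. The procedure was tested on simulated data. Levels per kb divide by the summed exons of GENCODE vM1 on mm9, matched by symbol for 16812 genes and by synonym for 1248. The length trend was removed per library by lowess with a span of 0.3. Other alternatives were DESeq2 1.42.0 and edgeR 4.0.16 on recovered reads, TMM scaling, a pseudocount of 0.5, no filter, a replicate block, and each library left out. Correlations between same-numbered libraries were -0.10, -0.06, 0.07 and 0.04, and the numbers pair no animals.

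The 10 genes, the lists and the classes were chosen with earlier results of these data known. Named genes are the 10, Mbd2, Ttr, the called genes of each list or the 4 with the smallest p where more were called, otherwise the 2 most abundant, and the 10 genes most like the set within genotypes at a mean of at least 50. Other genes named were chosen after their values were seen.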

Additional observations from a re-analysis of the deposited data

Results flagged for a closer look

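Dixon's test for a value far from the other 3 libraries of its genotype marked 4 of 54 groups (27 thalamic and habenular genes in 2 genotypes), and chance marks about 1 in 20. The normalized count of Plekhg1 was 499 in Mbd2-/- replicate 3 and 603 to 623 in the other Mbd2-/- libraries. In the same library Lhx9 was at 149.8, with 158 to 159 in the others, and Gpr151 was at 25.5, with 33.6 to 34.5 in the others. Calb2, which encodes calretinin and was named for this distance, was at 609 in wild-type replicate 3 and at 535 to 546 in the other wild-type libraries. Without Mbd2-/- replicate 3 the log2 fold change of Plekhg1 was -0.33.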

How the results depend on the processing

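The median log2 fold change of the 10 genes lay between -0.45 and -0.37 under every alternative run, and 6 to 8 of the 10 were called lower. No log2 fold change reversed its call. All genes called numbered 3185, but 2102 with the length trend removed, and from 2068 (without wild-type replicate 3) to 5155 (without Mbd2-/- replicate 4) with a library left out. A replicate block gave 3192 calls in all, 9 of the 11 further thalamic genes and 8 of the 10, and moved no count by over 1.5 times. The number pairs no animals, and only replicates 3 and 4 correlated best with their own number. Of the 21 relatives 3 were called, 5 with the length trend removed, and 2 to 5 with a library left out (5 without Mbd2-/- replicate 3 or 4). Of the Wnt genes 6 were called, and 3 to 8 with a library left out. Of the habenular genes 4 were called, 3 in DESeq2 on recovered reads, and 2 to 6 with a library left out. Further thalamic calls ran from 7 to 10. The difference between class medians of -0.02 moved to -0.31 with the length trend removed, and lay between -0.19 (without Mbd2-/- replicate 3) and 0.02 (without Mbd2-/- replicate 4) with a library left out. For the 144 genes outside the 10 (list genes and Mbd2), 84 calls were lost and 49 gained over 2154 fits under an alternative. For Lef1 and Tnnt1, near 100 and 50 normalized counts, few reads and 4 pools limit the precision.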
